A study of Mus musculus with 6 samples.

Results

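The transcripts described here are long non-coding RNAs (lncRNAs) that carry a TCONS name, the label an assembler gives to a transcript built from reads, and that the deposited lncRNA table classes as intergenic and as nothing else. With each transcript taken once, 605 of the 23098 transcripts in the table met this rule, out of 783 with a TCONS name and 4842 intergenic ones. RNA was sequenced from C17.2 cells, an immortalized mouse neural stem cell (NSC) line, after removal of ribosomal RNA. The control group (n = 3 libraries) was kept under standard oxygen. The H/R group (n = 3 libraries) spent 12 h in 5% O2 and was then returned to standard oxygen for 48 h, a culture model of ischemia and reperfusion. All 6 libraries came from the same line. It is not stated in the sources used here if replicates were grown as independent cultures, and p-values therefore reflect the spread among these libraries alone.

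LncRNAs are transcripts that are not translated into a known protein. Many are spliced and retained in the nucleus, and some act on genes close to where they are made, whereas others have no known function. An intergenic transcript from an assembled catalogue can be a gene of its own, an unannotated end of a neighbouring gene, or a transcribed copy of another gene, so position and strand are given with each member below.

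Control libraries totalled 601626 to 652393 lncRNA counts and H/R libraries 1145192 to 1239163, so the H/R group was sequenced more deeply. Of 12 neural stem cell markers, 7 were listed in the gene table, with summed levels of 1470.4 to 1571 CPM (counts scaled to the library total) in the control group and 1716 to 1796 CPM in the H/R group. Nes and Sox2 were among those listed, whereas Sox1, Pax6, Prom1, Fabp7 and Hes5 were not. The 4 listed fibroblast markers, led by the collagen gene Col1a1, summed to 4680.2 to 6558 CPM and 4362 to 5602 CPM, and those of astrocytes to at most 1.37 CPM in any library. The part of these cell states in the results below was not tested. In bulk RNA, fewer cells that make a transcript and less RNA per cell cannot be told apart.

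The sequences behind 3 of the changed members are shown first. TCONS_00029481, the member with the most counts, starts 37 bases from the RefSeq start of the lincRNA gene AU020206. The RefSeq promoter of AU020206 (GRCm38, chr7:75782071-75782370, minus strand, 250 bases before to 50 after the start) is printed with motif matches in capitals.
AU020206 promoter: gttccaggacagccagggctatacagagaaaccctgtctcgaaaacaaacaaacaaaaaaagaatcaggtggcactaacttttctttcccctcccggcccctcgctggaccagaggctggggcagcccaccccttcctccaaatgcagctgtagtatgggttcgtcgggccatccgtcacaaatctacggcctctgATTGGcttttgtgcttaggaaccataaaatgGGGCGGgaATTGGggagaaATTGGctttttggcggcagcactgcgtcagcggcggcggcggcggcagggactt
The capitals mark 3 matches of CCAAT, read on this strand as its reverse complement, and 1 match of GGGCGG. Of 32851 mouse promoters of the same length, 37.4% held CCAAT and 35.7% held GGGCGG on either strand. TATAAA (13.6% of promoters), ACGTG (19.6%), CACGTG (7.15%, which contains ACGTG), TGACGTCA (1.79%) and TGANTCA (7.81%) were searched on both strands and had no match in this window. In all, 38 members started within 100 bases of a RefSeq start on the same strand, at 37 distinct promoters, of which 21 (56.8%) held CCAAT and 10 (27%) held GGGCGG.

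TCONS_00010878 overlaps the lincRNA gene Gm30339, and TCONS_00027293 lies within Lncpint, a lincRNA gene known as a target of p53. The first 200 bases of the longest exon stretch that each shares with the GENCODE vM21 annotation are given, at chr15:93734413-93734612 on the plus strand and chr6:31093385-31093584 on the minus strand.
Gm30339 exon: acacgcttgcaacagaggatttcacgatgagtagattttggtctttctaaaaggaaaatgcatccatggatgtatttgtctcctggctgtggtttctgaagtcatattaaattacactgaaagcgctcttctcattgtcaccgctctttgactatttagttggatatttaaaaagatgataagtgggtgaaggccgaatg
Lncpint exon: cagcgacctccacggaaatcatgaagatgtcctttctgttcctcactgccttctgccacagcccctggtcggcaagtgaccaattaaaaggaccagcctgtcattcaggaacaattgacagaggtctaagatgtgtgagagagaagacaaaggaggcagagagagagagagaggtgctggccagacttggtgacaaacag

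TCONS_00000374 overlaps the pseudogene Gm29216, which resembles the 3′ part of mt-Co1, the mitochondrial gene for a subunit of cytochrome c oxidase. The first 100 bases of Gm29216 (chr1:24616098-24616197, minus strand) are set against bases 1054 to 1153 of mt-Co1, with differing bases in capitals.
Gm29216: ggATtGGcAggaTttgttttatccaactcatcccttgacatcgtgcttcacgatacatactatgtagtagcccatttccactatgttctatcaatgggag
mt-Co1: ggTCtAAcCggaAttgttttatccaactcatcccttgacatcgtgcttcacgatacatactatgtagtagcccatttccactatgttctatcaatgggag
Counted from 1 at the 5′ end of Gm29216, with its base first, the differences were A3T, T4C, G6A, G7A, A9C and T13A. They were the 6 differences in all 492 bases (98.8% identity), and the remaining 479 bases were identical, so reads from the 2 places cannot be told apart over most of this member.

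The members were spliced or gapped models. The RNA length was shorter than the genomic span in all 605, with a median of 1034 bases (range 50 to 16469) against a median span of 4515 bases. The other intergenic transcripts of the table had a median RNA length of 1097 bases and a median span of 1640 bases. There were 72 members under 200 bases, below the usual length limit for a lncRNA. The members formed 531 loci after overlapping members on the same strand were joined, and 50 loci held more than 1 member. Chromosomes 13, 17, 7 and 12 carried the most, with 51, 50, 49 and 47 members.

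Annotation from GENCODE vM21 placed the members in several classes. On the same strand, 171 members (28.3%) overlapped a lncRNA gene, 64 a pseudogene and 49 a protein-coding gene, with some members in more than 1 of these classes, although the table calls all of them intergenic. Another 45 overlapped a gene on the opposite strand only, 6 overlapped only another kind of gene on the same strand, and 279 (46.1%) overlapped no annotated gene on either strand. The nearest protein-coding gene lay at a median distance of 13456 bases, and 204 members lay within 10 kb of one without touching it.

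Most members were rarely sampled. The median total over the 6 libraries was 9 counts and 304 members had fewer than 10 counts. The control libraries held reads of 285, 265 and 256 members and the H/R libraries of 388, 370 and 344. After the H/R libraries were thinned to the median control total, these became 346, 331 and 308, all still above the control libraries, which were not thinned. Reads were seen in all 6 libraries for 120 members and in a single library for 180. There were 179 members with reads in the H/R group only and 69 with reads in the control group only, which became 145 and 86 after thinning. The same counts, and the numbers detected per library, are not given here over all transcripts. They therefore do not show how the members compare with other transcripts. No member had 10 or more counts in every library of one group and 0 in the other. Counts this low do not show that a member was absent.

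The counts were concentrated in a few members. TCONS_00029481 held 16.1%, 13.1% and 12.7% of the members' counts in the control group. Its share in the H/R group was 30.6%, 29.8% and 30.3%. The top 10 members held between 51.5% and 61.1% in each library. The plot of cumulative counts shows the gap at rank 1, and the curve of control replicate 3 below the others until the rank of TCONS_00000374, after which the 6 curves run close together.

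**Figure D1:**
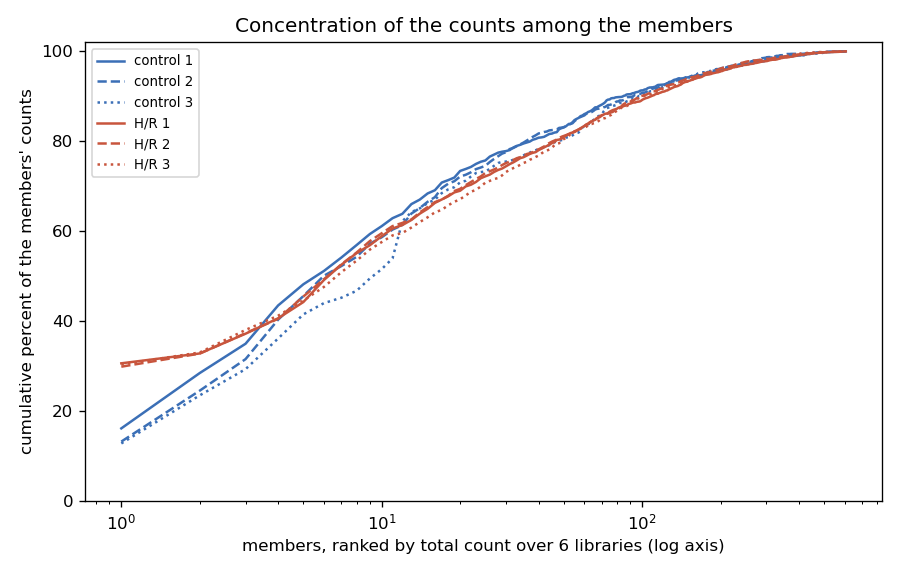
Cumulative percent of the members' counts (vertical axis) against the rank of the 605 members by total count (log axis), 1 line per library, blue for control and red for H/R. The H/R lines start near 30% at the first rank and the control lines at 12.7% to 16.1%, and by rank 20 all 6 lie between 67.1% and 73.4%.

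The members took 1.11% ± 0.0348 (SD, n = 3) of the lncRNA counts in the control group and 1.19% ± 0.00884 in the H/R group. The shares were 1.1%, 1.15% and 1.08% against 1.18%, 1.19% and 1.2%, with no overlap. The two-sided exact permutation test gave p = 0.1, the smallest value that 3 against 3 libraries allows. Without TCONS_00029481 the order turned, with 0.957% ± 0.0386 in the control group and 0.831% ± 0.00774 in the H/R group (exact permutation p = 0.1). Relative to the total of the gene table the difference was -0.000846 percentage points (exact permutation p = 0.6).

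Among the 109 members with enough counts to be tested (18% of the members, against 29.5% of the other intergenic transcripts), 4 were higher and 6 lower in the H/R group at an adjusted p under 0.05 by edgeR's quasi-likelihood test. One of the 4, TCONS_00010878, entered the test only through its H/R libraries, and TCONS_00008288 would not have entered on its control libraries alone. The 4 and 6 called are 3.67% and 5.5% of the members tested, where 2.67% of all 6779 transcripts tested were higher and 2.26% lower. With library scaling taken from the gene table, which moved the median log2 change of all transcripts to -0.22, the counts were 2 higher and 10 lower. The share of all transcripts called with that scaling is not given here. The median log2 fold change was 0.07 over the tested members and 0.02 over all transcripts tested, with 57 members above 0 and 52 below. Every H/R library lay above every control library for 20 members and below for 16, that is 18.3% and 14.7%, where 13.2% and 10.8% of all transcripts did so. By unadjusted p under 0.05 with at least a 2-fold change, 15 members were higher and 10 lower, with 6.92% and 4.97% of all transcripts called in each direction. The counts of separated groups and of unadjusted calls include members that 1 group alone would not have carried past the filter. TCONS_00002458, for example, had 6.37, 0 and 17.9 CPM in the control libraries and 30.8, 23.4 and 76.1 CPM in the H/R libraries. These counts are therefore not support for a difference.

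**Figure D2:**
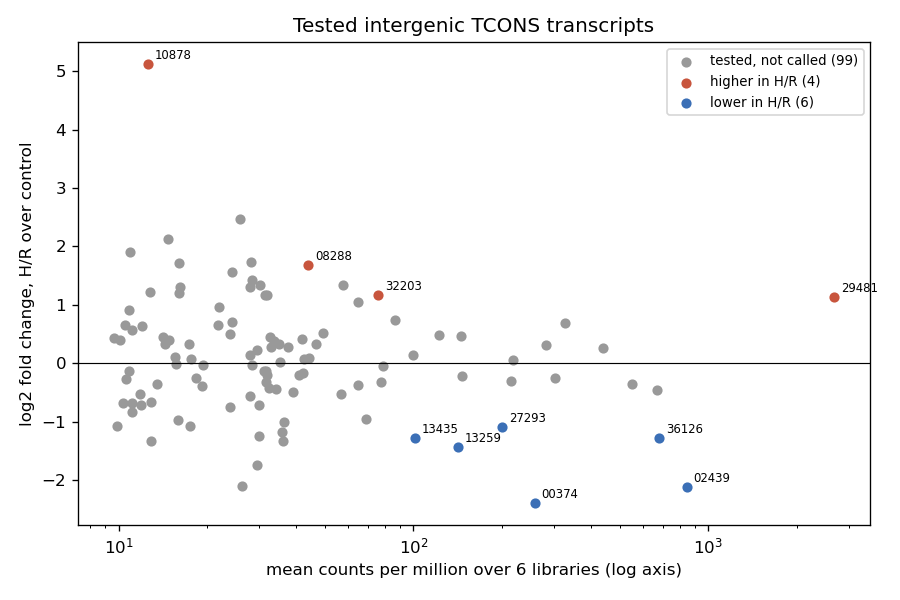
Log2 fold change of H/R over control (vertical axis) against mean CPM over the 6 libraries (log axis) for the 109 tested members, with called members labelled by the last digits of their names. The 6 lower members span -2.39 to -1.10. TCONS_00010878, at 5.12, rests on a single control count, and its fitted value ran from 4.61 to 7.51 when 1 library was left out.

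TCONS_00029481 (chr7:75767712-75782083, minus strand, over AU020206) was the most abundant member. Its level was 1840.5, 1539 and 1652 CPM in the control libraries and 3738, 3652 and 3605 CPM in the H/R libraries. All H/R libraries stood above all control libraries, and the groups were tight. The log2 fold change was 1.13 ± 0.14 (SE; edgeR adjusted p = 0.000115). The nearest tested coding gene, Akap13, which encodes a protein kinase A anchoring protein, lies 13103 bases away on the opposite strand and had 307 ± 16.6 CPM against 315 ± 20.3 CPM (SD, n = 3; log2 fold change 0.04, edgeR adjusted p = 0.776).

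TCONS_00010878 (chr15:93732794-93736856, plus strand, over Gm30339) was close to absent from the control libraries. The 3 control libraries gave 1, 0 and 0 counts, whereas those of the H/R group gave 17, 29 and 39. Against the library totals, the H/R to control ratio of the summed counts was 45.3 (95% exact interval 7.91 to 1810, counting error only). The member passed the filter on low counts only through its H/R libraries. Neither its edgeR call nor this ratio with its interval is therefore support for a difference. The interval also leaves out the spread between libraries. The member fell below that filter without H/R replicate 2 or 3. No tested coding gene lay within 50 kb.

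The other raised members had lower levels. TCONS_00032203 (chr8:19705284-19707143, plus strand, in no annotated gene) had 49.4, 45.5 and 45.8 CPM in the control libraries and 117, 99.9 and 97.7 CPM in the H/R libraries. The groups did not overlap, and the log2 fold change was 1.16 ± 0.31 (edgeR adjusted p = 0.0344). Leaving out any one of the 6 libraries ended the call, with an adjusted p of up to 0.155. TCONS_00008288 (chr13:62668800-62675713, minus strand, over Platr25 and the pseudogene Gm7045) is the raised member that overlaps a gene typed as protein-coding on the same strand. It had 15.9, 35.7 and 9.96 CPM against 60, 54 and 88.2 CPM. The change was 1.69 ± 0.48 (edgeR adjusted p = 0.0479), and the call was lost without control replicate 1, control replicate 3 or any one H/R library, with an adjusted p of up to 0.251. With control replicate 3 at 9.96 CPM, the member's control libraries alone would not have passed the filter on low counts.

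TCONS_00002439 (chr10:83474991-83481429, minus strand) had the smallest adjusted p of the members. Its level was 1411, 1328 and 1391 CPM in the control libraries and 268, 357 and 316 CPM in the H/R libraries. The groups were far apart, with a log2 fold change of -2.13 ± 0.18 (edgeR adjusted p = 1.02e-06). It begins 6021 bases beyond the end of Aldh1l2, a mitochondrial enzyme of folate metabolism, on the same strand. Aldh1l2 had 1955, 1937 and 1862 CPM in the control libraries and 460.4, 446 and 522 CPM in the H/R libraries on the scale of the gene table. Its log2 fold change was -2.01 (edgeR adjusted p = 4.26e-09), close to that of the member. D10Wsu102e, a coding gene that covers the member on the opposite strand, had 136 ± 10.4 CPM against 129 ± 11.1 CPM (SD, n = 3; edgeR adjusted p = 0.543). Whether reads of the Aldh1l2 transcript reach the member was not tested.

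**Figure D3:**
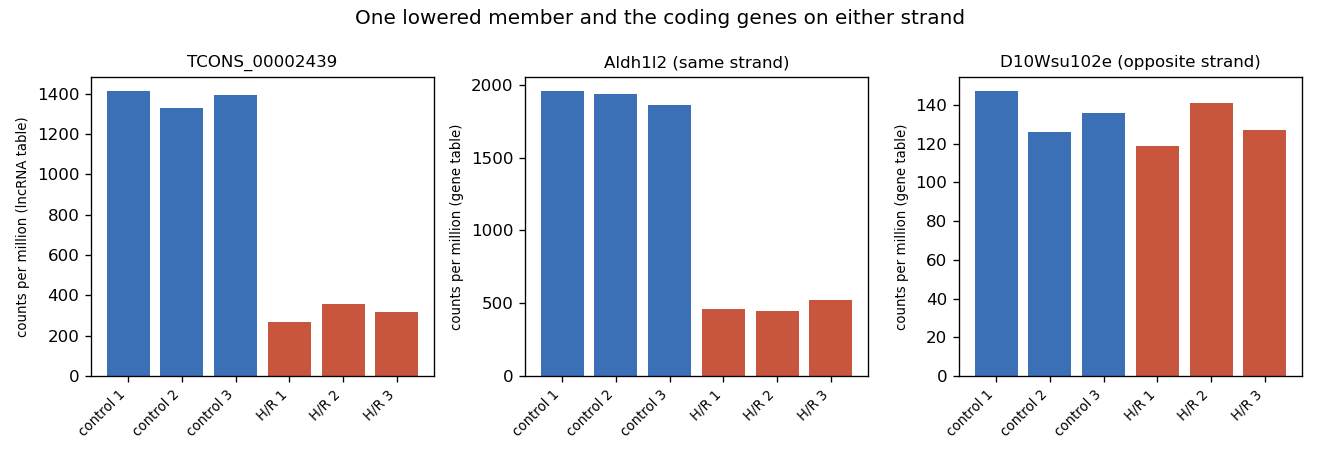
CPM per library (vertical axes from 0) of TCONS_00002439 on the scale of the lncRNA table and of Aldh1l2 and D10Wsu102e on that of the gene table, blue for control and red for H/R. The member falls from a mean of 1376 to 314 and Aldh1l2 from 1918 to 476, whereas D10Wsu102e stays between 119 and 147.

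TCONS_00036126 (chrX:9329004-9332617, minus strand) overlaps no annotated gene and had a mean level per length over the 6 libraries of 623 CPM per kilobase. By group this was 884 CPM per kilobase in the control group, below TCONS_00000374 at 1026, and 363 in the H/R group, below TCONS_00023057 at 641. It had 976, 1029 and 887 CPM in the control libraries and 419, 393 and 377 CPM in the H/R libraries. The groups did not overlap, with a log2 fold change of -1.28 ± 0.17 (edgeR adjusted p = 0.000236). Xk, which encodes a membrane protein of red blood cells and lies 15754 bases away on the opposite strand, had 7.97 ± 0.8 CPM against 11.8 ± 0.967 CPM (SD, n = 3; edgeR adjusted p = 0.0649).

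The member within Lncpint also fell. TCONS_00027293 (chr6:31092883-31093584, minus strand) had 248, 302 and 267 CPM in the control libraries and 138, 96.3 and 145 CPM in the H/R libraries. Every H/R library lay below every control library, and the log2 fold change was -1.10 ± 0.23 (edgeR adjusted p = 0.0074). Without H/R replicate 2 the adjusted p was 0.0671.

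On chromosome 17, 2 members outside any annotated gene fell. TCONS_00013259 (chr17:17860604-17870936, plus strand) had 196, 235 and 189 CPM against 92.5, 70.2 and 65.7 CPM, a log2 fold change of -1.44 ± 0.25 (edgeR adjusted p = 0.00161). Its nearest tested coding gene, Spaca6, which acts in sperm and egg fusion, lay 17595 bases away and had 98 ± 15.4 CPM against 80.5 ± 1.46 CPM (SD, n = 3; edgeR adjusted p = 0.0702). TCONS_00013435 (chr17:3070546-3076498, minus strand) had 169, 122 and 139 CPM against 45.8, 59.4 and 70 CPM. The change was -1.29 ± 0.28 (edgeR adjusted p = 0.00996), and it missed the threshold without control replicate 1 or without H/R replicate 1, where the adjusted p reached 0.0847. Scaf8, an RNA-binding protein that acts in transcript termination, lay 38474 bases away and fell as well, from 173 ± 6.32 to 138 ± 8.69 CPM (SD, n = 3; log2 fold change -0.32, edgeR adjusted p = 0.0128).

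TCONS_00000374 (chr1:24615670-24616192, minus strand), the member over the copy of mt-Co1, rested on 1 library. It had 111, 117 and 1074 CPM in the control libraries and 95, 86.4 and 64 CPM in the H/R libraries. The fit gave -2.39 ± 0.59 (edgeR adjusted p = 0.0227), but without control replicate 3 the change was -0.47 with an adjusted p of 0.507. The call was also lost when any one H/R library was left out. A listed transcript close by, uc007ams.1, had 1231, 1447 and 5871 CPM in the control libraries and 792, 739.8 and 963 CPM in the H/R libraries, so it was high in the same library. The mitochondrial gene mt-Nd4 had 2669, 2986 and 2779 CPM in the control libraries, with no rise in control replicate 3, and mt-Co3 had 10257, 2975 and 286 CPM. The part of mitochondrial reads in this member was not tested.

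**Figure D4:**
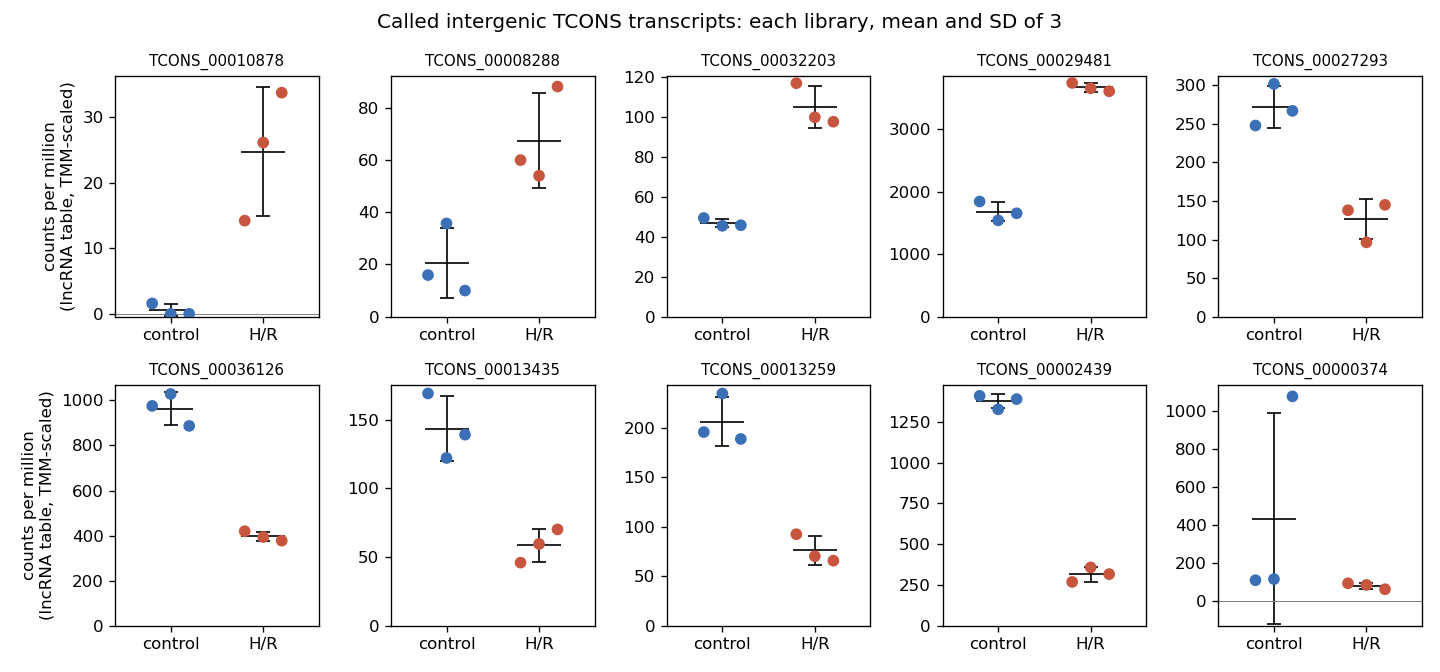
CPM of the 10 called members in each library (points, blue for control and red for H/R), with the mean and SD of 3 libraries in black and a separate vertical scale per panel. The groups do not overlap in any of the 10, and in TCONS_00000374 control replicate 3 at 1074 CPM stands apart from the other 5 libraries at 64 to 117 CPM.

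Some abundant members were not called. TCONS_00008340 (over the lincRNA gene E430024I08Rik) had 748, 825 and 759 CPM in the control libraries and 538, 556 and 597 CPM in the H/R libraries, without overlap, at a log2 fold change of -0.46 ± 0.17 (edgeR adjusted p = 0.144). It was called lower with DESeq2 (adjusted p = 0.018) and with gene-table scaling in edgeR (-0.70, adjusted p = 0.0206), and its adjusted p ranged up to 0.572 over the alternatives. TCONS_00004350, on the same strand as Snap47 and 6579 bases beyond its end, had 617 ± 78.8 CPM against 483 ± 109.5 CPM (SD, n = 3), and its groups overlapped. TCONS_00023057, with an RNA length of 75 bases and 557 CPM per kilobase, had 35.5 ± 15.5 CPM against 48.1 ± 7.2 CPM (SD, n = 3). A level per length rests on few bases in so short a transcript. When tested members that overlapped or lay within 10 kb of each other on either strand were joined, the largest group held 4 of them, on chromosome 17 around TCONS_00013604, and their log2 changes ran from -0.39 to 0.51 with none called.

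Several members span the positions of microRNA hairpins of the Mir344 cluster on chromosome 7. Whether a hairpin lies in an exon or an intron of a member is not given here. MicroRNAs pair with target RNAs mainly through a seed at bases 2 to 8, in capitals here (RefSeq, GRCm38, 5′ to 3′), and hairpins are cut out of a longer RNA.
miR-344-5p: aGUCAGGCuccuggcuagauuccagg
miR-344b-5p: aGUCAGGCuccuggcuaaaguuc
miR-344c-5p: aGUCAGGCugcuggcuagaguac
miR-344f-5p: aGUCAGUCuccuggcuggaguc
miR-344i: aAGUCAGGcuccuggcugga
miR-344-3p: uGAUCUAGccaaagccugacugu
miR-344c-3p: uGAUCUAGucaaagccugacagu
miR-344b-3p: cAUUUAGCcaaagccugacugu
miR-344f-3p: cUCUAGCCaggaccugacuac
The 5p arms of miR-344, miR-344b and miR-344c share the seed GUCAGGC, and the 3p arms of miR-344 and miR-344c share GAUCUAG. The other 5p and 3p arms each have a seed of their own. TCONS_00029426, which spans Mir344, Mir344b and Mir344c, had 30.2, 42.2 and 29.9 CPM in the control libraries and 30, 37.8 and 20.7 CPM in the H/R libraries. Its groups overlapped (log2 fold change -0.21, edgeR adjusted p = 0.884). TCONS_00029440, which spans Mir344f, had 55.7, 56.8 and 41.8 CPM against 20.8, 19.8 and 20.7 CPM. These groups did not overlap, but the change of -1.33 ± 0.45 missed the threshold (edgeR adjusted p = 0.109). The 4 other members that span a hairpin of the cluster had too few counts to be tested. Counts of the long transcripts are not levels of the mature microRNAs.

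The genes beside the members were compared in the same way. A tested coding gene lay within 50 kb of 75 of the 109 tested members, 67 genes in all. Of these, 4 genes were higher (5.97%) and 11 lower (16.4%) in the H/R group, where 18.8% of the 11104 genes tested in the gene table were higher and 19% lower. Without library scaling, 14 were higher and 7 lower, and the share of all genes called in that setting is not given here. The lower ones included Rack1, a ribosome-bound scaffold protein, at -1.06 on the log2 scale (edgeR adjusted p = 9.51e-06) beside TCONS_00004308 at 1.22, which was not called. Zfp57, a zinc finger protein that maintains imprints, was at -2.05 beside TCONS_00013578 at 0.33. The 11 lower genes lay beside members of either sign. Samd9l, for example, was at -0.96 beside TCONS_00027256 at -1.18, which was not called. Only the nearest tested gene of each member was counted, so Aldh1l2 is not among the 67. Tested coding genes that end within 10 kb before a tested member on the same strand were counted separately. There were 23 such genes, Aldh1l2 among them, with 2 higher (8.7%) and 4 lower (17.4%).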

How the data were processed

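RNA was sequenced from 3 control and 3 H/R libraries of C17.2 cells. The authors deposited raw counts per lncRNA transcript and per gene. Per the labels and the study's methods, reads were trimmed with cutadapt 1.9.3, and HISAT2 2.0.4 and HTSeq 0.9.1 were used for the gene counts. The tool and strand setting behind the lncRNA counts are not given in the sources used here, so reads of overlapping or antisense transcripts may be shared. The 12 other per-sample columns were not used, nor were columns of the authors' own comparisons. Positions are mm10.

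The members, gene lists and tests were chosen with earlier results of these data known. Repeated lines of a transcript held the same counts and were taken once. edgeR 4.0.16 in R 4.3.3 (filterByExpr, TMM scaling, quasi-likelihood test, two-sided, Benjamini-Hochberg over all transcripts or genes tested) gave the calls, and CPM use the TMM-scaled lncRNA or gene totals. SE is the absolute log2 fold change over the root of F. Shares were compared by exact permutation. Named members were those past the threshold, the 5 highest per kilobase, the 5 highest by mean count, and loci of 3 or more tested members. Other members are named for sequence or position and were chosen after their values were seen. Alternatives included DESeq2 1.42.0 (with a local dispersion fit), other scalings and filters, thinning and each library left out. GC content and splice sites were not analysed here, since no genome sequence was used. Intervals cover counting error only.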

Additional observations from a re-analysis of the deposited data

How the results depend on the processing

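As reported, 4 members were higher and 6 lower. The number higher was 2 with gene-table scaling, 9 with DESeq2, 7 with edgeR's exact test, 7 with no filter, 2 with H/R thinned and 15 at the study's thresholds. The number lower was 10 with gene-table scaling and 10 at the study's thresholds. These counts are of 109 members tested, except 605 with DESeq2 or no filter and 88 with H/R thinned. For DESeq2, 605 is the number of members entered, and not all of these received an adjusted p. Gene-table scaling also moved the median log2 change of all transcripts to -0.22. The share of all transcripts called is given above only for the main fit and the study's thresholds. The counts therefore show how calls moved, not how members compare with other transcripts. Leaving out a library gave 1 to 4 higher and 4 to 6 lower, of 98 to 154 members tested. Without H/R replicate 1, 2 or 3, the number higher was 2, 1 and 1. The causes were not tested. TCONS_00002439, TCONS_00029481, TCONS_00036126 and TCONS_00013259 stayed past the threshold in all 16 alternatives. TCONS_00010878 fell below the filter with H/R thinned or without H/R replicate 2 or 3, and its other calls say nothing of its stability. Besides left-out libraries, TCONS_00008288 lost its call with RLE factors, gene-table scaling, the replicate block and thinning, TCONS_00032203 with gene-table scaling and the block, and TCONS_00000374 with the block, while DESeq2 gave it no adjusted p. Same-numbered libraries did not deviate together (r = -0.012, 0.008 and 0.006). Such values cannot show whether the numbers pair cultures, and the labels do not say. With the replicate block, 3 members were higher and 5 lower.

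The difference in the members' share, 0.0788 percentage points, turned to -0.000846 over the gene-table total and to -0.126 without TCONS_00029481. It ran from 0.0644 to 0.0981 with a library left out. The mean number of members detected was 269 in the control group and 367 in the H/R group, 328 after thinning, and 86 and 140 at 10 or more counts. The numbers detected over all transcripts are not given here. Neighbouring genes called higher were 2 within 10 kb and 14 without scaling, and those called lower were 7 without scaling. There were 45 genes within 10 kb and 67 without scaling. At this depth, 496 of 605 members had too few counts to be tested.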
